A study of Rattus norvegicus with 36 samples.

Results

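The genes of cell division and DNA replication were followed as 58 genes, 35 of mitosis and 23 of S phase, in rats that had inhaled crystalline silica or air. A probe belonged to the set when its symbol in the deposited tables, with a suffix _predicted or _mapped removed and case ignored, was one of 60 listed names. Of the 58 genes, 44 had a probe, 26 of mitosis and 18 of S phase, with 1 probe each, among the 21567 distinct symbols on the 21792 probes of the array. Cdk1 is listed there under its older name Cdc2. No probe was matched by the rule for the mitosis genes Ccnb1, Top2a, Aurka, Birc5, Cenpa, Pttg1, Cks2, Tacc3 and Nek2 or for the S phase genes Cdk2, Rrm1, Tk1, Cdt1 and Dut.

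Total RNA of lung tissue, of the cells in bronchoalveolar lavage fluid (BALF cells, which are washed out of the airways and alveoli) and of blood came from the same 12 rats. The silica group held 6 rats that breathed 15 mg/m3 of crystalline silica for 6 hours a day on 5 days, the air group held 6 control rats at 0 mg/m3, and both were examined 44 weeks after the last exposure. All were male, of the strain labelled Fisher (CDF) 344, and the age label, approximately 3 month old, does not say at which time point it applies. Each rat gave 1 array for each tissue, 36 Illumina BeadChip arrays in all, on which the brightness of a probe follows the amount of its RNA.

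Cells copy their DNA in S phase and divide it in mitosis. The minichromosome maintenance proteins (Mcm2 to Mcm7) form the helicase that opens the DNA, primase and polymerases copy it, and ribonucleotide reductase supplies the nucleotides. In mitosis the kinase Cdk1 acts with cyclins, the spindle and its kinesin motors move the chromosomes, and the anaphase-promoting complex marks cyclins for destruction. Most cells of the adult lung rest, and its macrophages are known both to divide in place and to be replaced from blood monocytes.

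The promoters of mitosis and S phase genes carry different letters, and 5 of them are shown because their genes lead the results that follow: Ccnb2, Cdk1 and Cdc20 of mitosis, the helicase gene Mcm6, and Pola2, which moved against the others in the lung. Each sequence is from RefSeq (assembly GRCr8) and runs 5′ to 3′ along the gene, from 250 bases before its start to 50 after it. Capitals mark TTTGAA or TTTAAA (the cell cycle homology region), CCAAT, and TTTCCCGC, TTTGGCGC, TTTCGCGC or TTTGCCGC (the E2F motif), searched on both strands, so that a match on the opposite strand appears as its reverse complement.

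Ccnb2, chr8:79981609-79981908 on the minus strand: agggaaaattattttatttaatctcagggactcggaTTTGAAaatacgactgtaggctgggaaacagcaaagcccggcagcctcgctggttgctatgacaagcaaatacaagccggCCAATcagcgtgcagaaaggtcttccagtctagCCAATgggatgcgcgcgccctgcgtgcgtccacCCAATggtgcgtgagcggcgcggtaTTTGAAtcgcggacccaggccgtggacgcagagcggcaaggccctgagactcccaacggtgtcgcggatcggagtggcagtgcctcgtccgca

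Cdk1, chr20:19265043-19265342 on the plus strand: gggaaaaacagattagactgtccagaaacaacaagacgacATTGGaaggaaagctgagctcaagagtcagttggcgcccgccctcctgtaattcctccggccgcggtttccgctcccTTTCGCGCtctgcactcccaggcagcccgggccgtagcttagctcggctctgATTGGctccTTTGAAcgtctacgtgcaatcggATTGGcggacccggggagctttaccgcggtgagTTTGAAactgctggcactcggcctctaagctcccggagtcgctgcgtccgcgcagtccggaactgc

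Cdc20, chr5:137255750-137256049 on the minus strand: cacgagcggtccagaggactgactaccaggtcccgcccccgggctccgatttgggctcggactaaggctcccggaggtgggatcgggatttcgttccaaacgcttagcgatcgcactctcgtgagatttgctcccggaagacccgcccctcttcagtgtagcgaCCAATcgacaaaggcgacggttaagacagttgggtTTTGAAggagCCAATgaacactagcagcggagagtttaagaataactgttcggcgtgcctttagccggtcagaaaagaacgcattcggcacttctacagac

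Mcm6, chr13:42404303-42404602 on the minus strand: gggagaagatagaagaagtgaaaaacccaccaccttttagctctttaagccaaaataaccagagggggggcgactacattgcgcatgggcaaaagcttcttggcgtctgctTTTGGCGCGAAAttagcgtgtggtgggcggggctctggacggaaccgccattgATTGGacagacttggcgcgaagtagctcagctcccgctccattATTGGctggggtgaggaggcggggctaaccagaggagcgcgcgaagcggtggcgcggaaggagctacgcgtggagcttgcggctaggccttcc

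Pola2, chr1:212680493-212680792 on the minus strand: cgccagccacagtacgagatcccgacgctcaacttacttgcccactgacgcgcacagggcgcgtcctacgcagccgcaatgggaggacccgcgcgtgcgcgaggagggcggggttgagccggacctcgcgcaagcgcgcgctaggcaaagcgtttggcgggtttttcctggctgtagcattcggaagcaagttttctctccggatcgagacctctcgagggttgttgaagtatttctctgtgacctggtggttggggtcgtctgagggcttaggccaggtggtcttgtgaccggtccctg

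The Ccnb2 promoter held 2 matches of TTTGAA and 3 of CCAAT. The Cdk1 promoter held letters of all 3 kinds, the Mcm6 promoter held 2 E2F matches that overlap each other, and the Pola2 promoter held none of the letters in this window. A promoter was matched for 35 of the 44 genes, 1 of them by a synonym (Kif4, listed as Kif4a), and the first was taken for the 2 genes with 2 promoters. The table gave none for Aurkb, Ccna2, Foxm1, Racgap1, Ube2c, Ccne2, Cdc6, Mcm4 and Rrm2. Of 21 mitosis promoters, 18 (85.7%) held the cell cycle homology letters. The share was 28.6% of 14 S phase promoters, 28.3% of all 33469 promoters in the table and 26.4% of the 21851 promoters of protein-coding genes. The E2F letters were in 9 of 14 S phase promoters (64.3%), in 2 of 21 mitosis promoters (9.52%), and in 2.14% of all promoters. CCAAT was in 76.2% of mitosis promoters, 57.1% of S phase promoters and 37.5% of all promoters. These shares describe letters in a fixed window, and no binding was measured.

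Levels are given on a log2 scale after background correction and quantile normalization within each tissue. A probe was tested where its detection p was under 0.05 on at least 6 of the 12 arrays of the tissue, and it passed where limma's Benjamini-Hochberg adjusted p over all probes tested in that tissue was under 0.05. Arrays detected 10974 to 11607 probes in lung, 9229 to 9773 in BALF and 7244 to 8861 in blood, and of the 44 genes they detected 31 to 42 in lung, 43 to 44 in BALF and 25 to 33 in blood. Of 9 alveolar type 2 markers with a probe, 9 passed the detection filter in lung, 4 in BALF cells and 2 in blood. Of 13 monocyte and macrophage markers 13, 11 and 7 did in the same tissues, and of 10 erythroid markers 8, 4 and 10. In these bulk samples a change in the number of cells of a type and a change in RNA per cell cannot be told apart.

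The background level was inferred from the detection p-values. In lung the inferred mean was 92.5 to 117 intensity units over all rows, and the inferred median was 60.3 to 72.1 without the 596 rows whose detection p is not a whole multiple of 1 in 825. The inferred SD over all rows was 188 to 355 in lung and 173 to 348 in BALF. Without such rows the scaled median absolute deviation was 7.13 to 9.56 in lung and 7.13 to 8.32 in BALF. The size of a dim probe's log2 change therefore depends on the setting. A second setting used the median and the median absolute deviation of the inferred negative-control levels. It was chosen after the data were seen, and its values are given below as the fold with the median background.

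In lung tissue, genes of cell division were more often higher than lower in silica rats. Of 35 genes tested, 20 rose, 2 fell and 13 did not pass, while over all 11399 probes tested 8.26% rose and 9.46% fell. The median log2 change of the 35 genes was 0.07, against -0.0043 over all probes tested, and with the median background it was 0.33 against -0.022. With the median background 23 rose and 2 fell, against 8.87% and 10.1% of all probes. For 16 genes every silica array lay above every air array, and for 2 every one lay below, against 4.83% and 4.35% of all probes. Of the 35, 5 were detected on all 6 silica arrays but not on all 6 air arrays. Among these, Nusap1 and Cdc6 were detected on no air array and met the filter through silica arrays alone. Both are counted in the 20 and in the 16. The 9 genes not tested were Melk, detected on no array, and Cdca3, Hmmr, Kif11, Kif2c, Mad2l1, Racgap1, Ccne1 and Ccne2, detected on 1 to 4 silica arrays and on no air array.

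**Figure D1:**
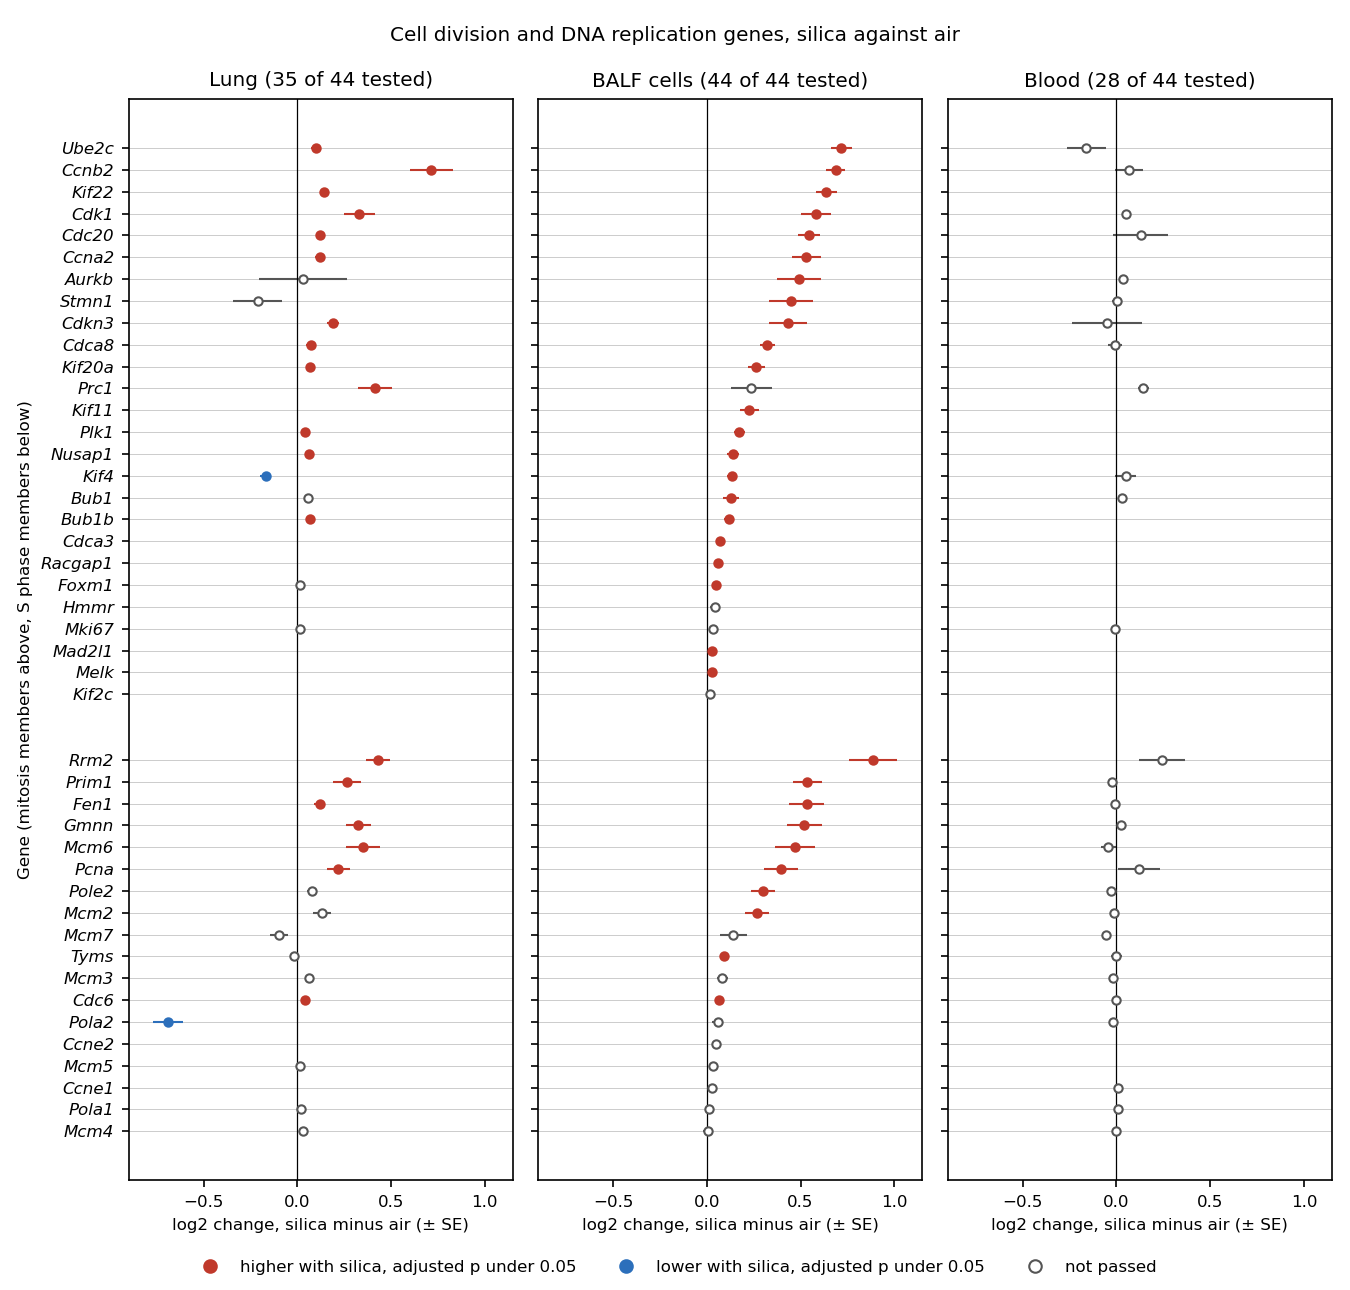
Log2 change (silica minus air, horizontal axis, with its standard error) of each of the 44 genes in lung, BALF cells and blood, from 6 silica and 6 air arrays in each tissue, with mitosis genes above and S phase genes below. Filled points passed the test. In BALF cells all 44 points lie right of 0 (Mcm4 would lie left of it with arrays aligned by the median of all probes), in lung 2 filled points lie left of it (Kif4 and Pola2), and no point is filled in blood.

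Of the mitosis genes tested in lung, Ccnb2, Prc1 and Cdk1 had the largest log2 changes, and with the median background Ccna2, Ccnb2 and Nusap1 did. Ccnb2, the cyclin B2 that works with Cdk1 at entry into mitosis, had levels of 8.47 to 9.17 (median 8.69) in silica lungs and 7.92 to 8.25 (median 7.996) in air lungs. Every silica array lay above every air array, and the log2 change was 0.71 ± 0.11 (SE, n = 6 each, limma adjusted p = 0.00207), or 1.97-fold with the median background. Cdk1, the kinase that drives entry into mitosis, had 7.92 to 8.50 (median 8.07) in silica lungs and 7.71 to 7.87 (median 7.78) in air lungs. These groups did not overlap either, and the log2 change was 0.33 ± 0.08 (limma adjusted p = 0.0163), or 1.69-fold with the median background. Cdkn3, a phosphatase of cyclin-dependent kinases, had 7.72 to 7.91 (median 7.77) in silica lungs and 7.57 to 7.62 (median 7.61) in air lungs, with no overlap. It changed by 0.19 ± 0.03 on the log2 scale (limma adjusted p = 0.00185) and by 1.77-fold with the median background.

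Ccna2, the cyclin A2 of S phase and early mitosis, was a dim probe. Its median raw intensity was 149 in silica and 101 in air lungs, near the inferred negative-control level. Its log2 levels were 7.53 to 7.69 (median 7.60) in silica lungs and 7.47 to 7.49 (median 7.48) in air lungs, again without overlap. The log2 change was 0.12 ± 0.02 (limma adjusted p = 0.00663), and the fold with the median background was 2.03.

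Among spindle genes of the lung, Prc1, which bundles microtubules between the separating chromosomes, had 8.31 to 8.84 (median 8.57) in silica lungs and 8.02 to 8.31 (median 8.14) in air lungs. The groups overlapped at their edges, and the log2 change was 0.41 ± 0.09 (limma adjusted p = 0.00978). The chromosome motor Kif22 had 7.65 to 7.77 (median 7.66) in silica lungs and 7.51 to 7.58 (median 7.54) in air lungs, with no overlap. Its log2 change was 0.14 ± 0.02 (limma adjusted p = 0.00171), or 1.79-fold with the median background. Nusap1, a microtubule-binding spindle protein, was detected on all 6 silica arrays and on none of the air arrays. It thus met the detection filter through the silica arrays alone, and its pass is no separate support. Nusap1 was at least 1.04-fold higher in silica lungs, a bound set against the lowest signal detected on the air arrays. The fitted fold with the median background was 1.86, with the air level below detection. Kif20a, a kinesin of the late spindle, rose by 0.07 on the log2 scale, or 1.54-fold with the median background.

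Kif4, a kinesin of chromosome arms, fell in lung. It had 7.79 to 7.91 (median 7.84) in silica lungs and 7.95 to 8.11 (median 8.02) in air lungs. All silica arrays were below all air arrays, and the log2 change was -0.17 ± 0.03 (limma adjusted p = 0.00232), or 1.32-fold lower in silica lungs with the median background. Stmn1, which destabilises microtubules, had a log2 change of -0.21 ± 0.13 and did not pass (limma adjusted p = 0.305).

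Cdc20, an activator of the anaphase-promoting complex, had 7.71 to 7.83 (median 7.76) in silica lungs and 7.61 to 7.70 (median 7.64) in air lungs. The groups did not overlap, and the log2 change was 0.12 ± 0.02 (limma adjusted p = 0.00371), or 1.43-fold with the median background. Ube2c, a ubiquitin-conjugating enzyme of the same complex, rose by 0.10 on the log2 scale, and the checkpoint kinase Bub1b rose by 0.07. The mitotic kinase Plk1 rose by 0.04 and Cdca8, a subunit of the chromosomal passenger complex, by 0.07. These 4 were, with the median background, 1.52-fold, 1.83-fold, 1.46-fold and 1.23-fold higher in silica lungs, in that order, where Bub1b and Plk1 were detected on only 3 of the 6 air arrays. The proliferation marker Mki67 did not pass: its levels were 7.50 to 7.53 (median 7.52) in silica lungs and 7.48 to 7.52 (median 7.50) in air lungs, its groups overlapped, and its log2 change was 0.02 ± 0.01 (limma adjusted p = 0.347). Its probe was dim, with a median raw intensity of 113 in silica and 106 in air lungs, near the inferred negative-control level. The same held for Foxm1, at 104 and 99.1, so a change in either could be missed. Aurkb, Bub1 and Foxm1 also did not pass, with log2 changes of 0.03, 0.06 and 0.01, while with the median background Bub1 passed, 1.54-fold higher in silica lungs (limma adjusted p = 0.0125).

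Of the 16 S phase genes tested in lung, 7 rose, 1 fell and 8 did not pass. Rrm2, the small subunit of ribonucleotide reductase, had 8.01 to 8.45 (median 8.12) in silica lungs and 7.66 to 7.80 (median 7.72) in air lungs. The groups did not overlap, and the log2 change was 0.43 ± 0.06 (limma adjusted p = 0.00131), or 2.07-fold with the median background. Gmnn, geminin, which blocks a further round of origin licensing, had 8.57 to 8.96 (median 8.67) in silica lungs and 8.20 to 8.48 (median 8.41) in air lungs, with no overlap. Its log2 change was 0.33 ± 0.07 (limma adjusted p = 0.00763).

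Of the replicative helicase, only Mcm6 passed in lung. It had 8.87 to 9.43 (median 9.22) in silica lungs and 8.73 to 8.91 (median 8.81) in air lungs, with overlap, and a log2 change of 0.35 ± 0.09 (limma adjusted p = 0.0198). Mcm2 had 7.95 to 8.24 (median 8.07) in silica lungs and 7.87 to 7.98 (median 7.97) in air lungs, Mcm3 had 7.49 to 7.63 (median 7.52) in silica lungs and 7.45 to 7.49 (median 7.47) in air lungs, and Mcm4 had 7.51 to 7.58 (median 7.56) in silica lungs and 7.51 to 7.54 (median 7.52) in air lungs. The Mcm3 groups did not overlap but its adjusted p was 0.0734, while with the median background it was 1.54-fold higher (limma adjusted p = 0.0131). Mcm5 had 7.45 to 7.47 (median 7.47) in silica lungs and 7.45 to 7.46 (median 7.46) in air lungs, with overlap. The probes of Mcm3, Mcm4 and Mcm5 were dim, with median raw intensities of 110, 131 and 89.3 in silica lungs, against 783 for Mcm6. Mcm7 had 8.47 to 8.69 (median 8.65) in silica lungs and 8.55 to 8.80 (median 8.74) in air lungs, and with a log2 change of -0.10 ± 0.05 it missed the threshold (limma adjusted p = 0.198).

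In the complex of primase and polymerase alpha, Prim1 rose and Pola2 fell in lung. Prim1, the catalytic subunit of primase, had 9.22 to 9.66 (median 9.46) in silica lungs and 9.04 to 9.34 (median 9.20) in air lungs, and its log2 change was 0.27 ± 0.08 (limma adjusted p = 0.0333). Pola2, the accessory subunit of the polymerase alpha complex that primase belongs to, had 10.44 to 10.91 (median 10.69) in silica lungs and 11.28 to 11.44 (median 11.40) in air lungs. All silica arrays were below all air arrays, and the log2 change was -0.69 ± 0.08 (limma adjusted p = 0.000319), or 1.56-fold lower with the median background. Pola1, the catalytic subunit of that polymerase, and Pole2, a subunit of polymerase epsilon, had log2 changes of 0.02 and 0.08 and did not pass, while with the median background Pole2 passed, 1.25-fold higher in silica lungs (limma adjusted p = 0.0368).

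At the replication fork, Pcna, the sliding clamp, had 11.81 to 11.96 (median 11.90) in silica lungs and 11.46 to 11.89 (median 11.71) in air lungs. The groups overlapped, and the log2 change was 0.22 ± 0.06 (limma adjusted p = 0.0332). The flap nuclease Fen1 had 7.96 to 8.10 (median 8.06) in silica lungs and 7.84 to 7.96 (median 7.93) in air lungs, with no overlap and a log2 change of 0.12 ± 0.03 (limma adjusted p = 0.0168). Cdc6, which loads the helicase at origins, was detected on all 6 silica arrays and no air array. It met the detection filter through the silica arrays alone, so its pass is no separate support. Cdc6 was at least 1.03-fold higher in silica lungs, with a fitted fold of 1.58 with the median background. Tyms, which makes thymidylate, did not pass, at -0.02 on the log2 scale.

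**Figure D2:**
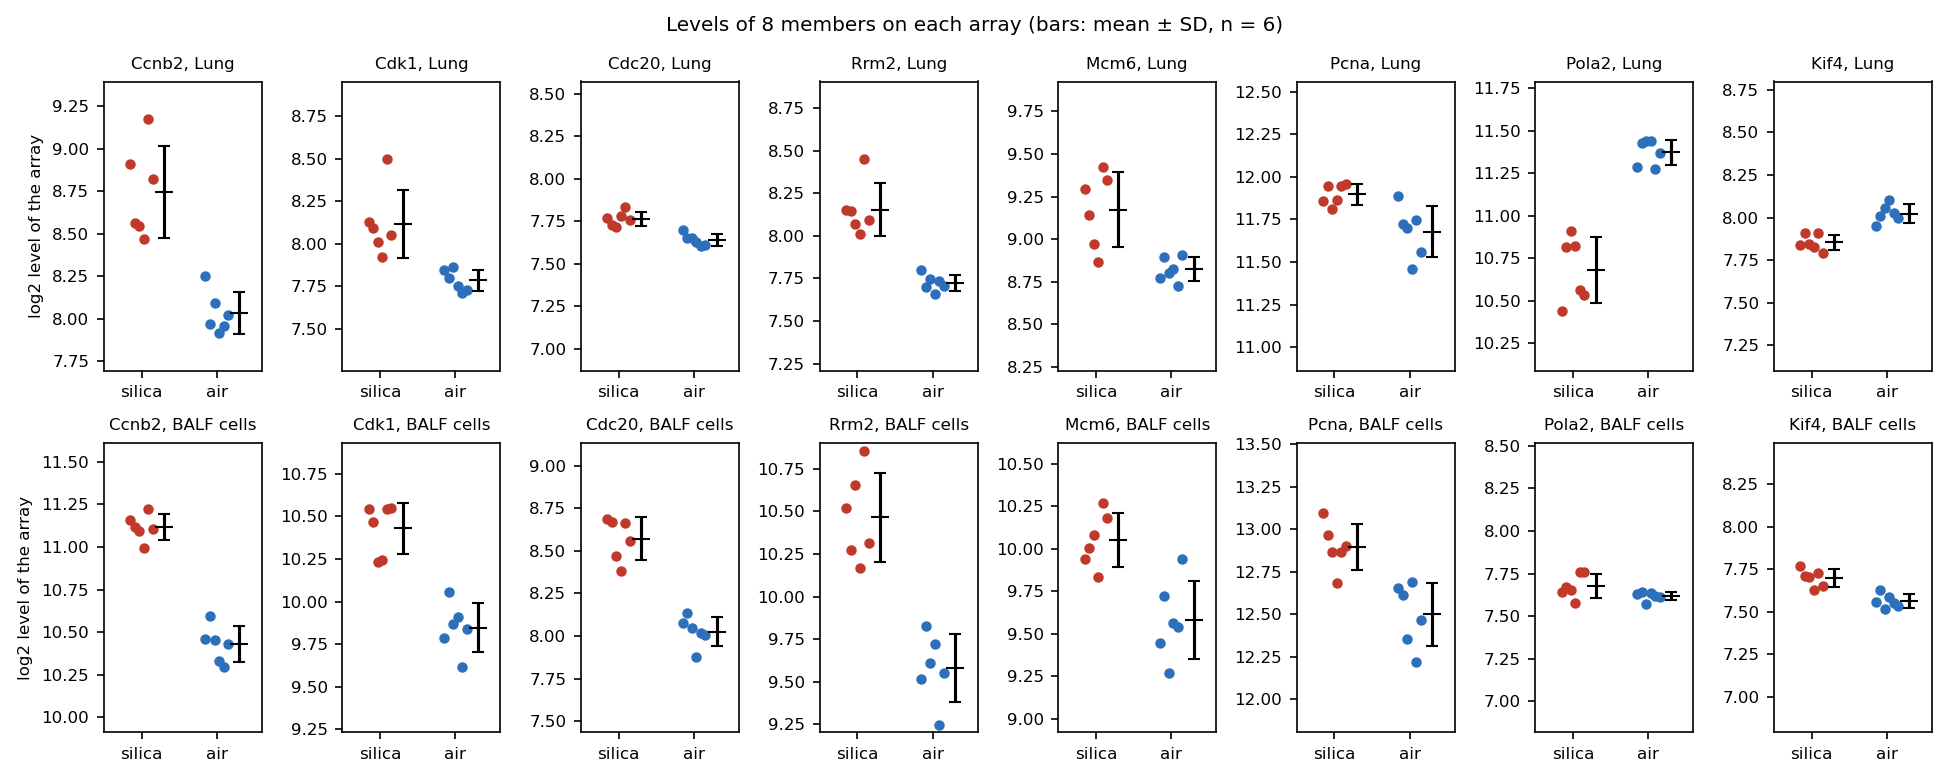
Log2 level (vertical axis) of 8 genes on each array, lung above and BALF cells below, with silica arrays left of air arrays and the mean ± SD of 6 arrays beside the points. Each panel spans the same 1.7 log2 units. Pola2 and Kif4 lie lower on all silica lung arrays, and the other 6 genes have higher silica means in both tissues.

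Calls in lung depended on the scaling between arrays. When arrays were aligned by the median of all probes in place of quantile normalization, 0 of the 35 genes rose and 1 fell (37 and 40 of all probes in limma, and Pola2 kept its call). When they were aligned by the median of the always detected probes, 6 rose and 1 fell, against 322 and 659 of all 11399 probes. The calls of Cdca8 and Plk1 were lost without silica array 1, 5 or 6 or without any 1 of the air arrays, at log2 changes of 0.057 to 0.074 for Cdca8 and 0.030 to 0.042 for Plk1. The call of Pcna was lost without silica array 1, 2, 5 or 6 or air array 2 or 6 (0.20 to 0.23), and that of Prim1 without silica array 1, 2, 5 or 6 or air array 2, 4, 5 or 6 (0.23 to 0.27). The other 18 calls held under each such omission.

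Cell markers moved in the same lungs, where 8.26% of all probes tested rose and 9.46% fell. Of 13 monocyte and macrophage markers tested, 8 rose and none fell, among them Cd68 with a log2 change of 0.85 and C1qa with 0.78, and the mean level of the list was 8.93 to 9.34 on silica arrays and 8.65 to 8.87 on air arrays. Of 14 T cell and NK markers none passed (6 had an unadjusted p under 0.05), and 2 of 7 B and plasma cell markers rose, led by Jchain at 1.45. Of 9 alveolar type 2 markers 4 rose. Of 8 endothelial markers 5 fell, with a list mean of 10.7 to 11.0 on silica and 11.2 to 11.4 on air arrays, and 3 of 9 fibroblast and smooth muscle markers fell. With the median background 10 monocyte and macrophage, 4 T cell and NK (Cd3e, Cd3g, Cd6 and Il7r), 2 B and plasma cell and 5 alveolar type 2 markers rose, and 8 endothelial and 3 fibroblast and smooth muscle markers fell. Their part in the results on cell division was not tested.

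In BALF cells most of the genes rose. All 44 were tested, 43 of them detected on all 12 arrays, and all 44 log2 changes were positive (that of Mcm4 was -0.011 when arrays were aligned by the median of all probes). Of them 32 rose, none fell and 12 did not pass, while over all 9564 probes tested 15.2% rose and 18.1% fell. The median log2 change was 0.16 for the 44 genes and -0.0057 for all probes tested, and with the median background it was 0.46 and -0.035. With the median background 35 rose and none fell, against 15.4% and 19.2% of all probes. For 14 genes every silica array lay above every air array, which held for 9.04% of all probes tested, and for none did every one lie below (9.67% of all probes). Mad2l1 was the gene detected on only 3 air arrays.

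Of the mitosis genes in BALF cells, Ube2c, Ccnb2 and Kif22 had the largest log2 changes, and with the median background Ccna2, Ube2c and Cdc20 did. Ube2c had 8.81 to 9.17 (median 9.03) in silica BALF cells and 8.21 to 8.42 (median 8.29) in air BALF cells. The groups were far apart, with a log2 change of 0.72 ± 0.06 (limma adjusted p = 6.15e-06), or 1.71-fold with the median background. Cdc20, its partner at the anaphase-promoting complex, had 8.38 to 8.69 (median 8.61) in silica BALF cells and 7.88 to 8.14 (median 8.03) in air BALF cells, with no overlap. Its log2 change was 0.55 ± 0.06 (limma adjusted p = 4.33e-05), or 1.69-fold with the median background.

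Ccnb2 had 10.997 to 11.23 (median 11.11) in silica BALF cells and 10.30 to 10.59 (median 10.44) in air BALF cells. No array overlapped, and the log2 change was 0.69 ± 0.05 (limma adjusted p = 3.53e-06), or 1.55-fold with the median background. Cdk1 had 10.23 to 10.55 (median 10.51) in silica BALF cells and 9.62 to 10.06 (median 9.86) in air BALF cells, also without overlap, and a log2 change of 0.58 ± 0.08 (limma adjusted p = 0.000264). Ccna2 had 8.13 to 8.65 (median 8.46) in silica BALF cells and 7.76 to 8.02 (median 7.90) in air BALF cells, without overlap, and a log2 change of 0.53 ± 0.08 (limma adjusted p = 0.000332), or 1.79-fold with the median background.

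Among motors and mitotic kinases in BALF cells, Kif22 had 8.81 to 9.13 (median 8.97) in silica BALF cells and 8.22 to 8.45 (median 8.33) in air BALF cells, with no overlap and a log2 change of 0.64 ± 0.06 (limma adjusted p = 1.15e-05). Aurkb, the kinase of the chromosomal passenger complex, had 8.75 to 9.23 (median 9.02) in silica BALF cells and 8.25 to 8.84 (median 8.44) in air BALF cells, with overlap and a log2 change of 0.49 ± 0.12 (limma adjusted p = 0.00695). Averaged with a probe that a synonym places on the same gene, Aurkb changed by 0.14 and did not pass (limma adjusted p = 0.163). Kif4, which was lower in silica lungs, was higher in silica BALF cells: it had 7.63 to 7.77 (median 7.71) in silica BALF cells and 7.52 to 7.63 (median 7.55) in air BALF cells, with overlap at the edge and a log2 change of 0.14 ± 0.03 (limma adjusted p = 0.00193). Cdca8, Kif20a, Kif11, Plk1, Stmn1, Cdkn3, Nusap1, Bub1, Bub1b, Cdca3, Racgap1, Foxm1, Mad2l1 and Melk also rose, by 0.03 to 0.45 on the log2 scale. Mki67 had 7.52 to 7.57 (median 7.55) in silica BALF cells and 7.47 to 7.57 (median 7.51) in air BALF cells and did not pass (limma adjusted p = 0.14), and Prc1, Hmmr and Kif2c did not pass either. The Mki67 probe was dim there too, with a median raw intensity of 148 in silica and 132 in air BALF cells.

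Rrm2 had the largest log2 change of the 44 genes in BALF cells, while with the median background that of Ccna2 was larger (0.84 against 0.78 for Rrm2). Its levels were 10.17 to 10.86 (median 10.42) in silica BALF cells and 9.25 to 9.83 (median 9.58) in air BALF cells. The groups did not overlap, and the log2 change was 0.89 ± 0.13 (limma adjusted p = 0.00031), or 1.72-fold with the median background. Prim1 had 9.77 to 10.14 (median 10.08) in silica BALF cells and 9.28 to 9.70 (median 9.49) in air BALF cells, without overlap, and changed by 0.54 ± 0.08 (limma adjusted p = 0.000293). Fen1 had 8.89 to 9.43 (median 9.23) in silica BALF cells and 8.54 to 8.88 (median 8.64) in air BALF cells, without overlap, and changed by 0.53 ± 0.09 (limma adjusted p = 0.00111).

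Gmnn had 9.51 to 10.12 (median 9.94) in silica BALF cells and 9.27 to 9.54 (median 9.33) in air BALF cells, with a slight overlap and a log2 change of 0.52 ± 0.09 (limma adjusted p = 0.00131). Pcna had 12.69 to 13.09 (median 12.88) in silica BALF cells and 12.22 to 12.69 (median 12.54) in air BALF cells, with overlap at the edge and a log2 change of 0.40 ± 0.09 (limma adjusted p = 0.00518). Pole2, Tyms and Cdc6 rose by 0.30, 0.09 and 0.07.

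The calls of the helicase subunits again differed in BALF cells, where their probes differed in brightness. Median raw intensities in silica BALF cells were 1254 for Mcm6, 488 for Mcm2, 459 for Mcm7, 224 for Mcm3, 153 for Mcm4 and 126 for Mcm5. With the median background their log2 changes were 0.41, 0.35, 0.19, 0.30, 0.06 and 0.28, in that order. Mcm6 had 9.83 to 10.27 (median 10.04) in silica BALF cells and 9.27 to 9.94 (median 9.55) in air BALF cells and rose by 0.47 ± 0.11 (limma adjusted p = 0.00598), and Mcm2 had 8.35 to 8.63 (median 8.47) in silica BALF cells and 8.07 to 8.38 (median 8.22) in air BALF cells and rose by 0.27 ± 0.06 (limma adjusted p = 0.00781). Mcm3 had 7.64 to 7.79 (median 7.74) in silica BALF cells and 7.57 to 7.69 (median 7.64) in air BALF cells, Mcm4 had 7.52 to 7.63 (median 7.57) in silica BALF cells and 7.50 to 7.64 (median 7.57) in air BALF cells, Mcm5 had 7.47 to 7.53 (median 7.50) in silica BALF cells and 7.45 to 7.50 (median 7.46) in air BALF cells and Mcm7 had 8.29 to 8.58 (median 8.36) in silica BALF cells and 8.09 to 8.41 (median 8.29) in air BALF cells, and their groups overlapped. None of these 4 passed, with adjusted p-values of 0.0501, 0.903, 0.0731 and 0.161, while Mcm3 and Mcm5 passed with the median background (limma adjusted p = 0.0315 and 0.0326). Pola2 had 7.58 to 7.76 (median 7.66) in silica BALF cells and 7.57 to 7.64 (median 7.62) in air BALF cells and did not pass (limma adjusted p = 0.156), and neither did Pola1, Ccne1 or Ccne2.

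When arrays were aligned by the median of all probes 2 of the 44 genes rose in BALF cells (Cdc20 and Ube2c), and by the median of the always detected probes 14 did, with none falling in either. Over all 9564 probes limma called 275 higher and 207 lower in the first setting, and 513 higher and 721 lower in the second. The call of Bub1 was lost without any 1 of silica arrays 1, 2, 3, 5 and 6 or air arrays 1, 3, 5 and 6 (0.11 to 0.13), and that of Melk without any 1 of the same silica arrays or air arrays 3, 4, 5 and 6 (0.022 to 0.028). The call of Mad2l1 was lost without silica array 2 or 5 or air array 2, 3 or 6 (0.024 to 0.025). The other 29 calls held under each such omission.

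Immune markers moved in the same BALF cells, where 15.2% of all probes tested rose and 18.1% fell. Of 11 monocyte and macrophage markers 7 rose and 1 fell, with Cd14 at a log2 change of 1.77 and Mrc1 at -0.47, and the mean level of the list was 9.34 to 9.48 on silica arrays and 8.96 to 9.02 on air arrays. Of 13 T cell and NK markers 8 rose, led by Cd3g at 1.19, with a list mean of 7.64 to 7.97 on silica and 7.54 to 7.60 on air arrays. Of 6 neutrophil markers 4 rose, led by S100a8 at 1.41, with a list mean of 7.64 to 7.87 on silica and 7.42 to 7.54 on air arrays. For T cell and NK markers 9 rose and 1 fell with the median background, and the counts of the other 2 lists were the same. Their part in the results on cell division was not tested.

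In blood no gene passed. Of 28 tested, 14 had a positive log2 change (the sign of 18 turned under at least 1 other setting), and the lowest limma adjusted p was 0.18. At an unadjusted p under 0.05 stood 4 of 28 genes, against 1072 of 8044 probes (13.3%), and limma called 0 of 8044 probes (0%). Of the 16 genes not tested, 8 were detected on no array: Hmmr, Kif11, Kif22, Kif2c, Nusap1, Plk1, Racgap1 and Ccne2.

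Among the lowest p-values in blood, Prc1 had 7.48 to 7.64 (median 7.54) in silica blood and 7.39 to 7.43 (median 7.40) in air blood. Every silica array lay above every air array, as for 0.609% of all probes tested, and the log2 change was 0.14 ± 0.03 (limma adjusted p = 0.18). Cdk1 had 7.19 to 7.29 (median 7.26) in silica blood and 7.17 to 7.23 (median 7.20) in air blood, with overlap and a log2 change of 0.05 ± 0.02 (limma adjusted p = 0.233). Bub1 had 7.20 to 7.26 (median 7.22) in silica blood and 7.18 to 7.22 (median 7.19) in air blood, and Mcm7 had 7.42 to 7.49 (median 7.45) in silica blood and 7.44 to 7.57 (median 7.51) in air blood.

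Rrm2 had 8.15 to 8.69 (median 8.32) in silica blood and 7.77 to 8.32 (median 8.19) in air blood, with overlap, and a log2 change of 0.24 ± 0.12 (limma adjusted p = 0.427). Pcna had 9.16 to 9.78 (median 9.41) in silica blood and 9.09 to 9.47 (median 9.29) in air blood and Mki67 had 7.28 to 7.42 (median 7.32) in silica blood and 7.30 to 7.39 (median 7.32) in air blood. Both overlapped between groups. Mcm2 had 7.30 to 7.39 (median 7.36) in silica blood and 7.32 to 7.42 (median 7.36) in air blood, and Mcm3 had 7.19 to 7.29 (median 7.26) in silica blood and 7.24 to 7.30 (median 7.28) in air blood. Mcm4 had 7.19 to 7.21 (median 7.21) in silica blood and 7.20 to 7.22 (median 7.21) in air blood, and Mcm6 had 7.47 to 7.70 (median 7.57) in silica blood and 7.54 to 7.75 (median 7.61) in air blood. All 4 overlapped between groups. They had log2 changes of -0.0045 to -0.04, and Mcm5 was not tested.

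Between mitosis and S phase genes, the share that rose was larger for mitosis genes in lung and BALF cells, a difference that is described here and was not tested. In lung 13 of 19 mitosis genes rose and 1 fell, and 7 of 16 S phase genes rose and 1 fell, with median log2 changes of 0.07 for both. Nusap1 is among the 13 and Cdc6 among the 7, and both met the filter through silica arrays alone. In BALF cells 22 of 26 mitosis genes rose, with a median log2 change of 0.20, and 10 of 18 S phase genes rose, with a median of 0.12. The median mitosis change less the median S phase change in lung was 0.0011, while it was 0.36 with the median background (0.61 for mitosis and 0.25 for S phase) and 0.15 with no background correction. In BALF cells it was 0.083, and 0.09 with the median background. In blood no gene of either list passed, with medians of 0.03 and -0.0068.

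Array by array, the mean level over the tested mitosis genes was 7.86 to 8.06 (median 7.94) in silica lungs and 7.79 to 7.88 (median 7.83) in air lungs, and the groups overlapped slightly. Over S phase genes it was 8.41 to 8.55 (median 8.50) in silica lungs and 8.37 to 8.42 (median 8.41) in air lungs. In BALF cells it was 8.29 to 8.49 (median 8.43) in the silica group and 8.07 to 8.23 (median 8.13) in the air group for mitosis genes, and it was 8.51 to 8.76 (median 8.65) in the silica group and 8.32 to 8.50 (median 8.41) in the air group for S phase genes. In BALF cells no silica array fell among the air arrays for either list. The mean of mitosis genes less that of S phase genes on the same array overlapped between silica and air in all 3 tissues. The lung means include Nusap1 and Cdc6, which met the filter through silica arrays alone.

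**Figure D3:**
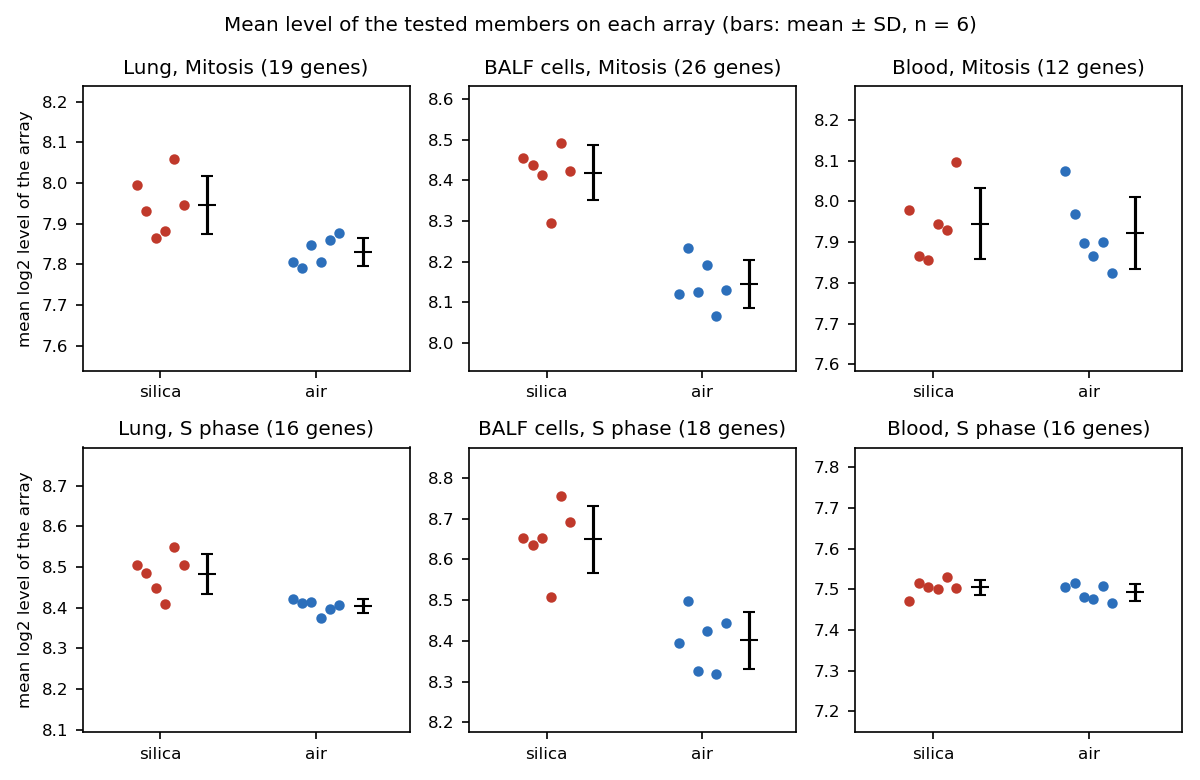
Mean log2 level of the tested mitosis genes (above) and S phase genes (below) on each array of lung, BALF cells and blood, silica left of air, with the mean ± SD of 6 arrays. The lists lie higher on all 6 silica arrays in BALF cells, overlap slightly in lung and overlap widely in blood.

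Of the 35 genes tested in both lung and BALF cells, 19 rose in both, 12 of mitosis and 7 of S phase. Nusap1 and Cdc6, which met the lung filter through silica arrays alone, are among the 19. Over all probes tested 8.26% rose in lung and 15.2% in BALF cells, and the share that rose in both was not counted. Prc1 rose in lung and did not pass in BALF cells. Kif4 fell in lung and rose in BALF cells, and Pola2 fell in lung and did not pass in BALF cells. Of 7 genes that rose in BALF cells and did not pass in lung, 4 were of mitosis (Aurkb, Bub1, Foxm1 and Stmn1) and 3 of S phase (Mcm2, Pole2 and Tyms).

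The difference between tissues was tested on each rat's BALF minus lung difference, silica rats against air rats. It passed for 17 of 35 genes, each with the more positive change in BALF cells, 10 of 19 mitosis and 7 of 16 S phase genes, against 22.5% of 9131 probes in either direction. For Pola2 the difference of changes was 0.75 ± 0.10 (limma adjusted p = 0.000249), for Stmn1 0.66 ± 0.17 (0.0136), and for Ube2c 0.62 ± 0.05 (1.36e-05). For Kif4, whose changes had opposite signs, it was 0.30 ± 0.03 (limma adjusted p = 8.24e-05).

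This comparison turned on the background. With the median background 12 genes passed, 8 of them more positive in BALF cells and 4 more positive in lung. The share of all probes that passed in this setting was not counted. The 8 were Cdca8, Fen1, Kif4, Mcm7, Pola2, Prim1, Stmn1 and Tyms, which also passed before. The 4 more positive in lung were Bub1b (-0.50, adjusted p = 0.0285), Ccnb2 (-0.34, 0.045), Cdkn3 (-0.43, 0.00769) and Nusap1 (-0.44, 0.0291) in limma. Nusap1 met the lung filter through the silica arrays alone, so its pass here is no separate support. Ccna2, Cdk1, Kif20a, Kif22 and Rrm2, which had passed with a more positive change in BALF cells, had negative differences that did not pass (-0.18, -0.24, -0.07, -0.15 and -0.26).

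**Figure D4:**
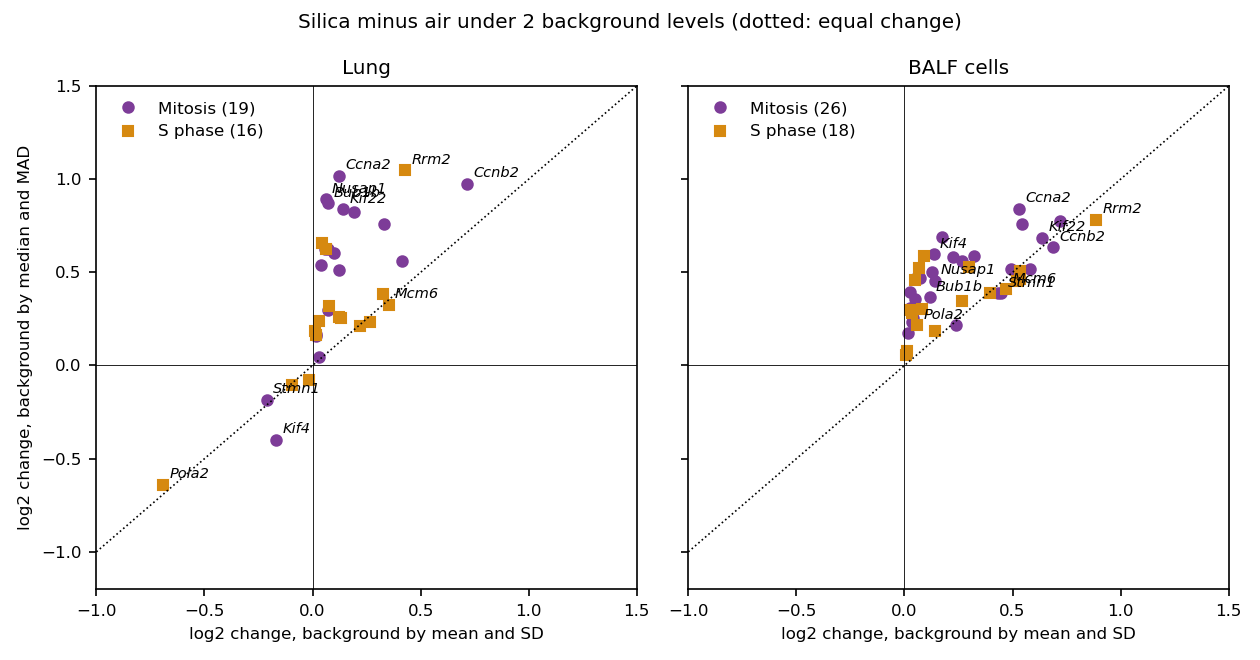
Log2 change (silica minus air) of each tested gene in lung (35) and BALF cells (44) with the background set by the mean and SD (horizontal) and by the median and median absolute deviation (vertical), circles for mitosis and squares for S phase genes. The dotted line marks equal change. In the lung panel Ccna2 and Nusap1 lie near 0 on the horizontal axis and well above the line, while Mcm6 and, at the lower left, Pola2 lie near it.

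The blood minus lung difference passed for 8 of 27 genes, against 9.44% of 7555 probes. It was below 0 for Ccnb2 (-0.65 ± 0.11, limma adjusted p = 0.00443), Cdk1, Fen1, Gmnn, Mcm6, Pole2 and Prim1 and above 0 for Pola2 (0.67 ± 0.08, limma adjusted p = 0.000871). With the median background 6 passed, all below 0: Ccnb2, Cdkn3, Cdc6, Pole2, Rrm2 and Ube2c. The share of all probes that passed in that setting was not counted. Cdc6 met the lung filter through the silica arrays alone, so its pass here is no separate support. In the main setting without 1 rat the count was 5 for silica rat 1 or 6 or air rat 5 or 6, and 4 for air rat 2.

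Other genes of the same processes were read beside these. Over all probes tested 8.26% rose and 9.46% fell in lung, and 15.2% rose and 18.1% fell in BALF cells. In lung 8 of 20 other mitosis genes rose and none fell, among them Nuf2, of the kinetochore (0.26), the histone variant H2az1 (0.20), Dlgap5, of the spindle (0.15), and the spindle assembly factor Tpx2 (0.13). Of 22 other replication genes 4 rose: the clamp loader subunits Rfc4 (0.31) and Rfc3 (0.26), the helicase partner Gins1 (0.12) and the kinase regulator Dbf4 (0.03). In lung 12 other mitosis genes rose and 1 fell with the median background (Cdc25b, -0.41, limma adjusted p = 0.0239), and 5 other replication genes rose. In BALF cells 17 of 28 other mitosis genes rose and none fell, led by the kinetochore subunits Spc24 (0.82) and Nuf2 (0.68), the kinesin Kif23 (0.41) and Dlgap5 (0.35). Of 27 other replication genes 10 rose and 2 fell, the clamp loaders Rfc4 (0.31) and Rfc3 (0.31) among the first and the ribonuclease subunit Rnaseh2a (-0.30) and the single-strand binding subunit Rpa3 (-0.24) being those that fell. There 18 other mitosis genes rose with the median background, and 13 other replication genes rose and 2 fell.

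Genes of the G1 phase and of arrest gave mixed results. Over all probes tested 8.26% rose and 9.46% fell in lung, and 15.2% rose and 18.1% fell in BALF cells. The small counts below were not tested against these shares. In lung 1 of 12 G1 cyclin, kinase and E2F-RB genes rose, the transcription factor Myc (0.57 ± 0.05, limma adjusted p = 0.000151), and 2 fell, the cyclin D1 gene Ccnd1 (-0.30 ± 0.04, limma adjusted p = 0.00142) and the E2F partner Tfdp2 (-0.08). In BALF cells 2 of 12 rose, Myc (0.40) and E2f5 (0.05), and 1 fell, the retinoblastoma gene Rb1 (-0.10), against 4 and 1 with the median background. Of 14 inhibitor and arrest genes in lung, Ccng1 (0.30) and Chek2 (0.10) rose and Btg2 (-0.36), Gadd45a (-0.35) and Gadd45b (-0.24) fell. Of 11 in BALF cells, 5 rose, among them Ccng1 (0.58) and the Cdk1-inhibiting kinase Wee1 (0.25), and 2 fell, Gadd45a (-0.35) and Ccng2 (-0.18). With the median background 5 rose and 2 fell there as well. The largest rise was then that of Gadd45b (1.04, limma adjusted p = 3.49e-07), and Cdkn1a rose by 0.67 (limma adjusted p = 0.00113). Both probes were dim, with median raw intensities of 143 and 105 in silica BALF cells, and changed by 0.12 and 0.05 in the main setting. In blood limma called none of the other mitosis, replication, G1 or arrest genes, of which 0, 1, 2 and 0 had an unadjusted p under 0.05.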

How the data were processed

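The deposited table of each tissue holds, per the file headers, an intensity and a detection p-value for every probe and array, before normalization between arrays. The authors' own processed values, also deposited, are on a log2 scale. Their array medians were 7.61 to 7.62 for lung, 7.52 for BALF and 7.21 to 7.22 for blood, and they kept the order of the intensities within each array (rank correlation 1). BeadStudio, lumi and limma are named, without versions, in the submitters' processing notes.

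Log2 values were computed from the deposited intensities by tissue with the neqc function of limma 3.58.1 (R 4.3.3), which applies normexp with a background level inferred from the detection p-values, adds an offset of 16 and quantile-normalizes. The filter on detection left 11399 probes in lung, 9564 in BALF and 8044 in blood. Each comparison used lmFit and eBayes, two-sided, with Benjamini-Hochberg adjustment over the probes of that fit. For tissue against tissue, the fit took the within-rat difference of log2 values, with rats matched by the rat number in the labels. With 6 arrays a group, their number limits the precision. The fit was tested on simulated data. The median background used the median and scaled median absolute deviation of 825 inferred negative-control levels. For that estimate alone it left out rows whose detection p is not a whole multiple of 1 in 825 (within 0.001), 596 for lung, 613 for BALF and 652 for blood, among them the probes of Kif11, Mcm5 and Pola1.

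The genes and lists were chosen with earlier results of these data known. Values by array were given for the 12 passing genes of largest change in lung and in BALF cells, for the 5 of lowest p in blood, and for Mki67, Top2a, Pcna, Ccnb1, Cdk1 and Mcm2 to Mcm7 where a probe was tested. Of the other lists, up to 4 passing genes of largest change in the main setting were named, with some others that passed with the median background. The title and the description of 1 silica blood array disagree on its number (6 and 8), and the description was used to find its column. Other settings tried were no background correction, alignment by medians in place of quantile normalization, other detection filters, the authors' values, other eBayes options, array weights, averaging of probes, the replicate number as a block, and leaving out arrays. Symbols of genes outside the member list were updated through a RefSeq table of GRCr8.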

Additional observations from a re-analysis of the deposited data

Results flagged for a closer look

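A single array stood apart from the other 5 of its group in 14 of 214 groups of 6 arrays, 8 in lung, 4 in BALF cells and 2 in blood (Dixon's criterion, by which chance marks about 1 in 20 groups). Lung silica replicate 5 was the highest for Cdk1 (log2 level 8.50, next 8.13), Nusap1 (7.55, next 7.50), Cdc6 (7.52, next 7.48) and Rrm2 (8.45, next 8.15). Lung silica replicate 1 was the highest for Gmnn (8.96), and lung silica replicate 4 the lowest for Mcm7 (8.47). Lung air replicate 4 was the lowest for Fen1 (7.84) and Mcm2 (7.87). In BALF cells, silica replicate 4 was the lowest for Cdkn3 (9.06) and Prim1 (9.77), silica replicate 5 the highest for Ccne2 (7.57), and air replicate 2 the highest for Ccne1 (7.46). In blood, silica replicate 6 was the highest for Kif4 (7.72) and air replicate 5 the highest for Prc1 (7.43). Without lung silica replicate 5, the lung calls of Cdk1, Nusap1, Cdc6 and Rrm2 held.

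The silica effect differed between BALF cells and lung, by the test of the difference itself, for 17 genes in the main setting. With the median background 8 of these passed with the same sign. Those of Ccna2, Cdk1, Kif20a, Kif22 and Rrm2 were negative there and did not pass. The values that follow are of the main setting. The log2 change in BALF cells exceeded that in lung by 0.75 for Pola2, 0.66 for Stmn1, 0.62 for Ube2c, 0.49 for Kif22, 0.46 for Rrm2, 0.42 for Cdc20, 0.41 for Fen1 and 0.41 for Ccna2. It exceeded it by 0.30 for Kif4, 0.27 for Prim1, 0.25 for Cdca8, 0.25 for Cdk1, 0.24 for Mcm7, 0.22 for Pole2, 0.19 for Kif20a, 0.13 for Plk1 and 0.11 for Tyms. Between blood and lung it differed for 8 genes, with blood minus lung at -0.65 for Ccnb2, -0.39 for Mcm6, -0.30 for Gmnn, -0.29 for Prim1, -0.28 for Cdk1, -0.13 for Fen1, -0.11 for Pole2 and 0.67 for Pola2. Of these 8, 2 passed with the median background (Ccnb2 and Pole2).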

How the results depend on the processing

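With no background correction the median mitosis change less the median S phase change was 0.15 in lung and 0.14 in blood, and the BALF minus lung differences of Cdk1 and Rrm2 turned to -0.10 and -0.063. Shifting arrays to the median of all probes, in place of quantile normalization, left 0 genes higher and 1 lower in lung, 2 higher in BALF cells, and 2 BALF minus lung and 0 blood minus lung differences. That setting put the mitosis less S phase difference in lung at 0.040 and turned Prim1 in blood minus lung to 0.0078. Over all probes it called 37 higher and 40 lower in lung and 275 and 207 in BALF cells, 57.1% higher against 45.7%. Shifting to the median of detected probes left 6 genes higher and 1 lower in lung (mitosis less S phase 0.040), 14 higher in BALF cells, and 6 and 1 differences between tissues, and moved the share of lung calls that were higher to 32.8%, against 46.6%. The cause was not tested.

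Blood minus lung differences passed for 3 genes among probes detected on all 12 arrays and 5 with the authors' values. Averaging probes of a gene put the mitosis less S phase difference in BALF cells at 0.040. The median background, added after the data were seen, gave mitosis less S phase differences of 0.36 in lung and 0.22 in blood, and turned the BALF minus lung differences of Bub1b (-0.50), Ccna2 (-0.18), Cdk1 (-0.24), Cdkn3 (-0.43), Kif20a (-0.066), Kif22 (-0.15), Nusap1 (-0.44) and Rrm2 (-0.26). The small positive differences of Bub1, Cdc6 and Mcm3 also turned (-0.13, -0.13 and -0.32), and these passed in neither setting. The 22 genes that passed in lung and the 32 in BALF cells kept their sign under each setting run. Of those that did not pass, 18 of 28 in blood, 2 of 13 in lung and 1 of 12 in BALF (Mcm4) changed sign under at least 1 setting.

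Leaving out 1 array at a time gave 16 to 23 genes higher and 2 to 3 lower in lung, 29 to 36 higher and 0 lower in BALF cells, 0 in blood, 16 to 18 BALF minus lung and 4 to 8 blood minus lung differences. The mitosis less S phase difference ranged from -0.0057 to 0.0108 in lung, 0.0556 to 0.0998 in BALF cells and 0.0204 to 0.0573 in blood. Arrays with the same replicate number in both groups correlated in their deviations at -0.396 to 0.327 in lung, -0.195 to 0.388 in BALF cells and -0.493 to 0.315 in blood, above 0.1 in 1, 3 and 1 of 6 pairs, so the number was not taken as a pairing. Of 6 numbers in each tissue, 1, 2 and 1 matched their own number best. With the replicate number as a block 10 genes rose in lung and 3 blood minus lung differences passed. Over all lung probes that setting called 603 higher and 665 lower, against 942 and 1078. Every other count of the listed genes stayed within 1.5 times under it.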
